A study of Homo sapiens with 6 samples.

Results

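The nuclear lamina and inner nuclear membrane were followed here through 10 genes, namely the lamins LMNA, LMNB1 and LMNB2, the lamin B receptor LBR, the LEM-domain genes TMPO, EMD and LEMD3, their DNA-bridging partner BANF1, and the SUN-domain genes SUN1 and SUN2. The genes were chosen by symbol, as known parts of this structure, and a probe set was taken only where its annotation held exactly 1 symbol. The rule found 11 probe sets, 1 for each gene and 2 for BANF1, among 19460 probe sets with 1 symbol that stood for 18417 genes. The group was put together when differences among these siRNA groups had already been seen, among them that of TMPO. The counts of called members and their adjusted p-values below are therefore a description and are used as support for nothing.

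RNA came from U2OS, an established human osteosarcoma cell line. The 6 arrays made 3 groups of 2, which received siRNA against luciferase as the control, against H3.Y, or against H3.X and H3.Y together (the combined knockdown). The labels do not say whether the latter cultures received a pool of siRNAs. H3.X and H3.Y are primate-specific variants of histone H3. Every culture had 2 rounds of transfection and was harvested 4 days later. All groups were thus siRNA-treated U2OS cells, with no untransfected group. The labels name the arrays of a group biological replicates but not how the cultures were kept apart, so p-values measure only the spread between these arrays. Fewer cells of a kind and less RNA per cell cannot be told apart in such bulk samples.

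The lamina is a meshwork of A-type and B-type lamins under the inner nuclear membrane. It is anchored by membrane proteins such as LBR, emerin (EMD) and the LAP2 proteins encoded by TMPO, several of which carry a LEM domain that binds BANF1 on DNA. SUN proteins cross the inner membrane and join the lamina to nesprins in the outer membrane, and so to the cytoskeleton. The meshwork is taken apart at mitosis and rebuilt around daughter chromosomes, and it holds silent chromatin at the nuclear edge.

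Values were log2 units per probe set on arrays with medians from 5.10 to 5.14. Pearson's r of replicate arrays across probe sets, which are not independent, ran from 0.986 to 0.992. Replicates of the H3.Y group spread most (an SD of 0.419 for their differences over all probe sets, against 0.333 with luciferase and 0.304 in the combined knockdown). No probe set was named for the siRNA targets (0 for H3Y1 or H3Y2), so their depletion was not analysed here. As a check of the cell type, the mesenchymal marker VIM lay between 10.69 and 10.95 on every array, COL1A1 between 8.33 and 10.73, and RUNX2, a bone lineage factor, between 5.05 and 5.89, around the array medians. The 3 measured blood markers (PTPRC, CD3E and CD14) lay between 1.89 and 4.74, below every array median. Of the 3 neural markers, SYP (6.41 to 7.45) and RBFOX3 (5.87 to 6.12) lay above every array median and GFAP (4.93 to 5.30) around it. Epithelial markers moved with the combined knockdown, where the 4-gene list averaged 6.32 and 6.16 against 5.26 and 5.19 in luciferase arrays, with EPCAM at 7.41 and 7.21 against 4.97 and 5.14. Their part in the results was not tested.

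Most members were well measured. Their means over the arrays lay above those of 69.7% (LEMD3) to 95.9% (the second BANF1 probe set) of all probe sets. How far a member varied differed widely, from a range over the 6 arrays of 0.34 log2 units for EMD to 3.31 for LMNB1 and 2.07 for TMPO. The threshold for a call was an adjusted p of 0.05 in limma, taken over all 33297 probe sets. After H3.Y siRNA 0 of the 11 member probe sets were called against luciferase (4 at an unadjusted p under 0.05, as were 13.9% of all probe sets), where 0.279% of all probe sets were called. For the combined knockdown 1 was called, TMPO, lower, against 1.84% of all. Between the knockdowns 2 were called, LMNB1 higher and TMPO lower in the combined knockdown, against 4.67% of all.

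**Figure D1:**
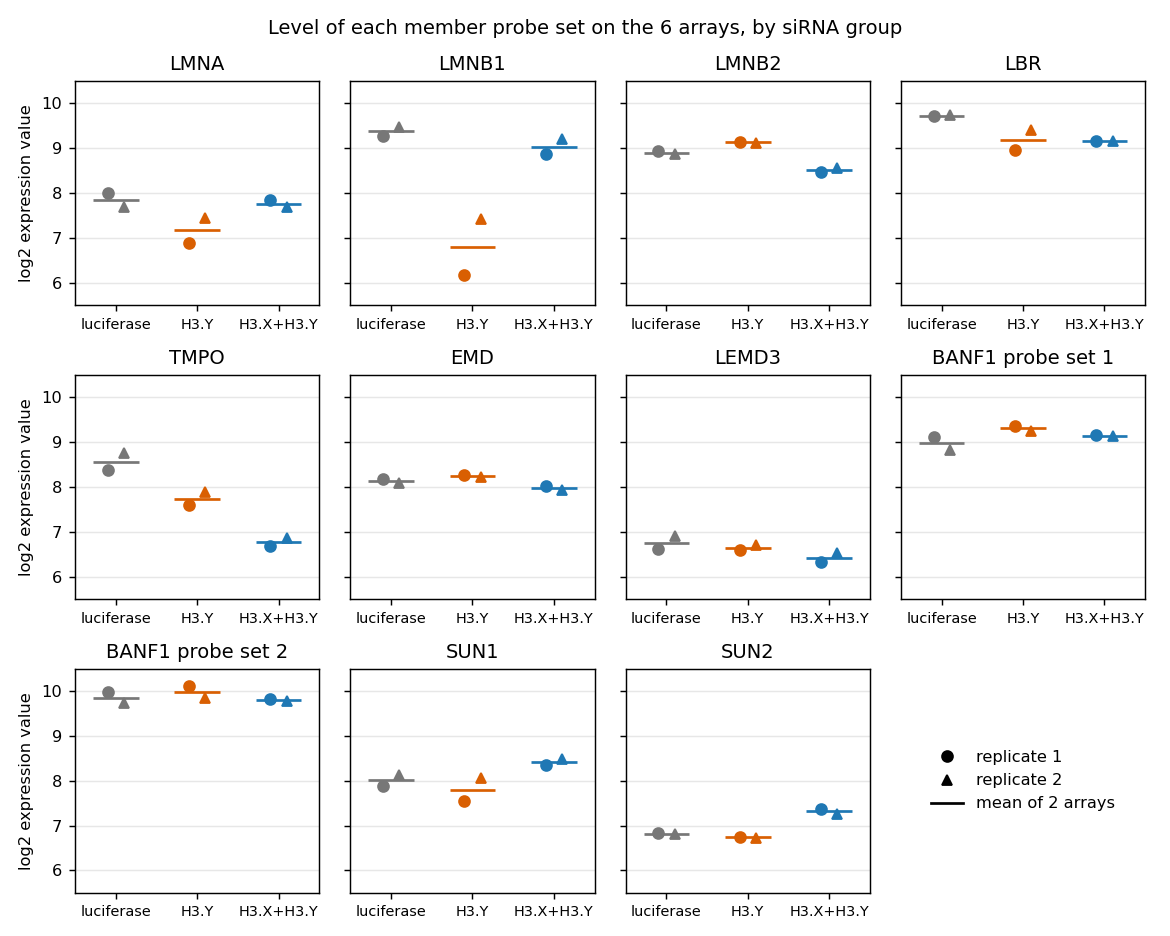
Log2 expression value of each member probe set (vertical axis, same scale in every panel) by siRNA group, with a circle and a triangle for replicates 1 and 2 and a line for their mean. LMNB1 stands at 6.17 and 7.42 after H3.Y siRNA and at 8.87 or above on all other arrays, TMPO steps down from luciferase to H3.Y to the combined knockdown, and EMD stays within 0.34 log2 units.

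Lamin B1 (LMNB1), a B-type lamin that stays farnesylated and membrane-bound, showed the widest differences of the group. Its value was 9.27 and 9.48 on the luciferase arrays, 6.17 and 7.42 after H3.Y siRNA, and 8.87 and 9.21 in the combined knockdown. The arrays of the 3 groups did not overlap, and the H3.Y arrays were the low ones. The mean after H3.Y siRNA was 5.98-fold below luciferase (log2 -2.58 ± 0.39 SE, n = 2 arrays per group, 95% interval -3.51 to -1.65). Only 1 of the 33297 probe sets had a more negative difference in that comparison. The H3.Y arrays were themselves 1.25 log2 units apart, and the difference was not called at an adjusted p of 0.068 (limma).

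With H3.X and H3.Y both targeted, LMNB1 lay near the control arrays. It differed there from luciferase by log2 -0.34 ± 0.39, with an interval from -1.27 to 0.59. Set directly against H3.Y siRNA, the combined knockdown was 4.72-fold higher (log2 2.24 ± 0.39, interval 1.31 to 3.17) and was called, at an adjusted p of 0.032 (limma). The order of the levels was thus luciferase, combined knockdown, H3.Y siRNA. The difference between luciferase and the combined knockdown was not called, though their arrays did not overlap. Its SE of 0.39 pools the 3 groups and so takes in the gap between the H3.Y arrays. In a fit of only the 4 arrays compared the SE was 0.17, and the difference was again not called (adjusted p = 0.38, limma).

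The size of the LMNB1 difference after H3.Y siRNA depended on the array. It was log2 -1.95 without H3.Y replicate 1 (adjusted p = 0.10, limma) and -3.21 without H3.Y replicate 2 (adjusted p = 0.018). In both of these fits the H3.Y group is 1 array whose spread is taken from the other groups, so the gap between the H3.Y arrays no longer counts and the SE falls from 0.39 to 0.20. The adjusted p of 0.018 is therefore not read as a gained call. Without luciferase replicate 1 or 2 it was -2.68 or -2.48 and not called. With all arrays kept, it was called when only probe sets with 1 symbol were tested (adjusted p = 0.0085), when dim probe sets were left out (0.029) and with an intensity trend in the variance (0.049). Over all 13 alternatives its adjusted p ran from 0.0085 to 0.38. The contrast between the knockdowns lost its call in a fit of only the 4 arrays compared (adjusted p = 0.076, limma), the same fit as without either luciferase array. It also lost its call without either combined array, at differences between 2.07 and 2.41. The difference was smaller without H3.Y replicate 1 and larger without H3.Y replicate 2, as these stood at 6.17 and 7.42 beside a combined mean of 9.04.

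RefSeq places 2 transcription starts of LMNB1 in assembly GRCh38.p14, and the 300 bases around each, from 250 before to 50 after the start, are shown because this member moved most. The windows are chr5:126776373-126776672 and chr5:126776886-126777185, both on the plus strand. Capitals mark a CCAAT box, searched as CCAAT on both strands, and the second window holds 1, read on the opposite strand, that begins at position -138 from the start. A CCAAT box was present in 34.6% of the 35116 RefSeq windows of this length, so a match describes the sequence and nothing more. Their GC contents were 52.0% and 73.7%.
LMNB1 window 1: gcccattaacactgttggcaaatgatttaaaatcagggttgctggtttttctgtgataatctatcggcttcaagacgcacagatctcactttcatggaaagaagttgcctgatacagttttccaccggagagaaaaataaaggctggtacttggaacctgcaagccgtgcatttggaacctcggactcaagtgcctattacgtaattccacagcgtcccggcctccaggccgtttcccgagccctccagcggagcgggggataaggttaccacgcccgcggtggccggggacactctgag
LMNB1 window 2: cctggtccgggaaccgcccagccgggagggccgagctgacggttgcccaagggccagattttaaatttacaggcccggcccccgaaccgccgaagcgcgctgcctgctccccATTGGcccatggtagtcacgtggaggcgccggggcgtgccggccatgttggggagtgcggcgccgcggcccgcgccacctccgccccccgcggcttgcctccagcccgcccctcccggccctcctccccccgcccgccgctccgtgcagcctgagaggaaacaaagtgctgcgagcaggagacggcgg

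Lamin B2 (LMNB2), the other B-type lamin, did not follow LMNB1. It read 8.94 and 8.87 with luciferase, 9.14 and 9.12 after H3.Y siRNA, and 8.46 and 8.57 in the combined knockdown. The highest arrays were those of H3.Y siRNA, the lowest those of the combined knockdown, and no 2 groups overlapped. Against luciferase the differences were log2 0.23 ± 0.13 after H3.Y siRNA and -0.39 ± 0.13 in the combined knockdown, neither called. The knockdowns differed from each other by log2 -0.61 ± 0.13 (combined minus H3.Y), at an adjusted p of 0.0506 (limma), just outside the threshold. It was called under 4 alternatives, with adjusted p from 0.016 with only 1-symbol probe sets to 0.0487 after renewed quantile normalization.

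The A-type lamins A and C are both encoded by LMNA. That gene read 7.996 and 7.69 with luciferase, 6.90 and 7.45 after H3.Y siRNA, and 7.84 and 7.69 in the combined knockdown. Both H3.Y arrays were below all others. The difference after H3.Y siRNA was log2 -0.67 ± 0.22 (interval -1.19 to -0.14) and was not called. The H3.Y arrays were 0.56 log2 units apart, which is close to the difference itself. The difference was -0.39 without H3.Y replicate 1 and -0.94 without H3.Y replicate 2. The combined knockdown differed from luciferase by -0.08 ± 0.22 (interval -0.61 to 0.45).

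LBR, a membrane protein that binds B-type lamins and HP1 and also has sterol reductase activity, was lower than luciferase on every knockdown array. The values were 9.72 and 9.74 with luciferase, 8.97 and 9.41 after H3.Y siRNA, and 9.17 and 9.15 in the combined knockdown. Luciferase arrays lay apart from the other 4, while the knockdown groups overlapped. The differences were log2 -0.54 ± 0.17 and -0.57 ± 0.17 and neither was called (adjusted p = 0.24 and 0.18, limma). The first was -0.32 without H3.Y replicate 1 and -0.76 without H3.Y replicate 2. Both were taken against the same luciferase arrays, so they are not 2 separate observations. Between the knockdowns LBR differed by -0.03 ± 0.17 (interval -0.44 to 0.39).

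**Figure D2:**
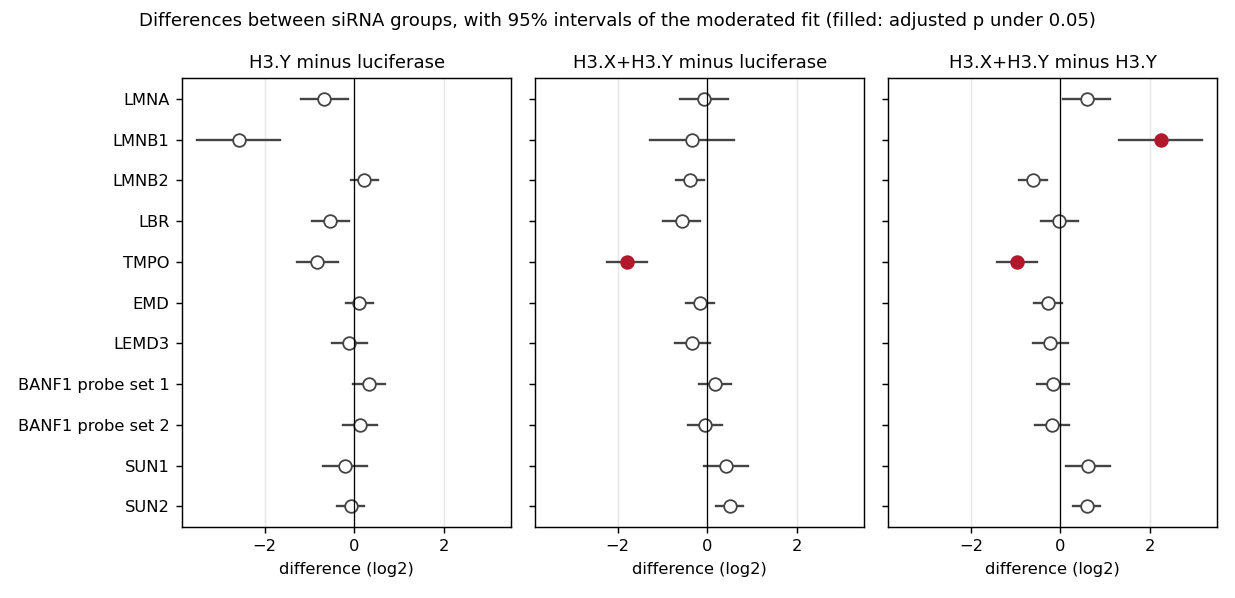
Difference in log2 units (horizontal axis) of each member probe set in the 3 comparisons, with 95% intervals of the moderated fit and filled points for an adjusted p under 0.05. LMNB1 lies at -2.58 after H3.Y siRNA with a wide interval and at 2.24 between the knockdowns, TMPO lies at -1.79 in the combined knockdown, and the BANF1, EMD and LEMD3 points lie within 0.35 of 0.

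TMPO encodes the LAP2 family, of which the beta form sits in the inner membrane and binds lamin B and the alpha form is soluble and binds lamin A. It read 8.37 and 8.75 with luciferase, 7.60 and 7.88 after H3.Y siRNA, and 6.68 and 6.86 in the combined knockdown. No groups overlapped, and the levels stepped down in that order. TMPO fell 3.45-fold in the combined knockdown (log2 -1.79 ± 0.19, n = 2 arrays per group, interval -2.24 to -1.34). It was 1.77-fold lower after H3.Y siRNA (log2 -0.82 ± 0.19, interval -1.27 to -0.37), which was not called at an adjusted p of 0.146 (limma) but was with only 1-symbol probe sets tested (0.039). The combined knockdown lay below H3.Y siRNA by 0.97 ± 0.19 on the log2 scale and was called, while the step from luciferase to H3.Y siRNA was not.

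The TMPO calls depended on the arrays fitted. Against luciferase, the combined knockdown lost its call when any of the 4 arrays compared was left out. Every probe set called as reported in that comparison lost its call in these fits, so the loss is not particular to TMPO. The difference was -1.98 and -1.60 without luciferase replicates 1 and 2, and -1.70 and -1.88 without combined replicates 1 and 2. The call was kept in a fit of only the 4 arrays compared (-1.79, adjusted p = 0.030, limma). Leaving out either H3.Y array repeats that fit. Dropping any of the 6 arrays ended the call between the knockdowns, with differences from -1.11 to -0.82. So did fitting only the 4 arrays compared (adjusted p = 0.070, limma), the same fit as without either luciferase array. No left-out array turned the direction of a TMPO difference.

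The RefSeq window around the first TMPO start, chr12:98515323-98515622 on the plus strand of GRCh38.p14, is shown because TMPO was the member called against luciferase. It holds 2 CCAAT boxes, in capitals, which begin at positions -47 and -15 from the start, and its GC content is 65.0%.
TMPO window 1: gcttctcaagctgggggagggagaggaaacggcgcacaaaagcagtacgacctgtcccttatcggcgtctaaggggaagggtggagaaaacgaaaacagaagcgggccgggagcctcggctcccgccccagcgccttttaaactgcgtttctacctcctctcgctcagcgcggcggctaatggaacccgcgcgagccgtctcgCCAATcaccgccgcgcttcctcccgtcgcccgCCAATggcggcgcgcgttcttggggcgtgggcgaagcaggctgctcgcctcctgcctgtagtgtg
RefSeq windows matched 9 of the 10 members, all but SUN1. Taking the first listed window of each gene, CCAAT was found in 5 of the 9 (TMPO, LMNA, EMD, LEMD3 and SUN2), against 36.4% of 15843 protein-coding genes. The E2F site was searched in 4 spellings on both strands, TTTCCCGC, TTTGGCGC, TTTCGCGC and TTTGCCGC. It was found in 2 of the 9, LMNA and LEMD3, against 4.4% of protein-coding genes. The CHR element, TTTGAA on either strand, was found in LMNB2 and SUN2, against 12.1%. In none of these 9 first windows did matches of different motifs overlap.

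By distance over the 6 arrays (Euclidean, after centring each probe set on its luciferase mean), the profile nearest to TMPO outside the members was that of SLC16A7, a monocarboxylate transporter, at 0.30 log2 units. Next came the deubiquitinase UCHL5 (0.35), the mitochondrial ribosomal protein MRPL35 (0.39), the chromatin-bound coactivator PSIP1 (0.43) and LIN7C (0.46). These 5 differed from luciferase by log2 -1.86 to -1.55 in the combined knockdown, beside -1.79 for TMPO, and by -1.14 to -0.62 after H3.Y siRNA, beside -0.82. They were picked for this likeness, which is a description over 6 arrays.

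The other LEM-domain members varied little. Emerin (EMD), which links lamin A to BANF1 and is mutated in a form of muscular dystrophy, read 8.18 and 8.09 with luciferase, 8.28 and 8.23 after H3.Y siRNA, and 8.02 and 7.93 in the combined knockdown. Its differences from luciferase were 0.11 ± 0.13 (interval -0.19 to 0.42) and -0.16 ± 0.13 (interval -0.47 to 0.15). LEMD3, also called MAN1, an inner membrane protein that binds receptor SMADs, read 6.61 and 6.90, then 6.60 and 6.69, then 6.32 and 6.52 in the same order of groups. Luciferase and H3.Y arrays overlapped, and the combined knockdown arrays were the lowest. Its differences from luciferase were -0.11 ± 0.16 and -0.34 ± 0.16, and neither was called.

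BANF1, the barrier-to-autointegration factor that crosslinks DNA and recruits LEM-domain proteins to chromatin, was read by 2 probe sets. The first gave 9.12 and 8.83 with luciferase, 9.35 and 9.26 after H3.Y siRNA, and 9.15 and 9.15 in the combined knockdown. The second gave 9.98 and 9.73, 10.11 and 9.85, and 9.82 and 9.77. Against luciferase the first differed by log2 0.33 ± 0.15 after H3.Y siRNA and the second by 0.12 ± 0.16. Their estimates for the combined knockdown had opposite signs, 0.17 ± 0.15 and -0.06 ± 0.16. None of these was called, and the luciferase arrays alone were 0.28 and 0.25 log2 units apart.

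The SUN genes had their highest arrays in the combined knockdown, where TMPO had its lowest. SUN2 read 6.83 and 6.81 with luciferase, 6.75 and 6.72 after H3.Y siRNA, and 7.38 and 7.27 in the combined knockdown. Replicates lay within 0.11 log2 units of each other and no groups overlapped. The combined knockdown was above luciferase by log2 0.50 ± 0.13 (interval 0.20 to 0.81, adjusted p = 0.123, limma), which was called with only 1-symbol probe sets (0.0499). It was above H3.Y siRNA by 0.58 ± 0.13 (adjusted p = 0.056), which was called under 3 alternatives with adjusted p from 0.019 to 0.040. SUN1 read 7.89 and 8.14, then 7.54 and 8.05, then 8.35 and 8.49 in the same order, with luciferase and H3.Y arrays overlapping. Its differences from luciferase were -0.21 ± 0.20 after H3.Y siRNA and 0.41 ± 0.20 in the combined knockdown, and that between the knockdowns was 0.62 ± 0.20 (adjusted p = 0.16, limma), or 0.37 without H3.Y replicate 1.

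As a group the members split rather than moved together. After H3.Y siRNA 7 member probe sets were below luciferase and 4 above, with a median of log2 -0.11 where the median of all probe sets was 0.02. Against the same control arrays, the combined knockdown had 8 below and 3 above, with a median of -0.16 against 0.00 for all. Between the knockdowns 7 were lower and 4 higher in the combined knockdown, with a median of -0.16 against -0.03. Arrays of the groups did not overlap for 8, 9 and 10 of the 11 member probe sets in these 3 comparisons, while 41.7%, 47.4% and 46.6% of all probe sets did not overlap. In each comparison 1 member passed 1 log2 unit in size, as did 1.99%, 2.37% and 3.56% of all probe sets.

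Other genes of the nuclear envelope were read from lists of known parts. For the list counts below, the shares of all probe sets called were 0.279% (H3.Y siRNA against luciferase), 1.84% (combined against luciferase) and 4.67% (between the knockdowns). In that order, 13.9%, 15.3% and 19.0% of all probe sets had an unadjusted p under 0.05. No list was tested as a set. Of 10 further inner membrane and lamina-associated genes, limma called 0 against luciferase in either comparison (1 and 1 at an unadjusted p under 0.05), and TMEM43, a membrane protein also called LUMA, was the 1 called between the knockdowns (0.65 ± 0.13 higher in the combined knockdown). The median of this list was log2 -0.15 after H3.Y siRNA and -0.13 in the combined knockdown. Nurim (NRM), chosen after its values were seen, read 7.33 and 7.48 with luciferase, 5.86 and 6.75 after H3.Y siRNA, and 6.69 and 6.84 in the combined knockdown. Its difference after H3.Y siRNA, log2 -1.10 ± 0.28, was the most negative of that list and was not called. NRM has 3 probe sets, and only the one with the highest mean is given here.

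Nesprins, further SUN genes and torsins had 0 of 12 genes called by limma in any comparison (1, 3 and 3 at an unadjusted p under 0.05). The list medians were log2 -0.05 after H3.Y siRNA and 0.11 in the combined knockdown. Many of these genes were dim, so the list says little of them. SUN3, SUN5, SYNE4 and SPAG4 read 3.17 to 4.93, below every array median, and SYNE1, SYNE2 and SYNE3 lay around it (4.56 to 5.59). TOR1AIP2, an activator of torsins in the endoplasmic reticulum, differed from luciferase by -0.45 ± 0.13 and -0.51 ± 0.13, and TOR1B by 0.01 ± 0.19 and 0.65 ± 0.19. Of the enzymes that process the CaaX end of lamins, 5 of 6 were measured and limma called 0 in any comparison (1, 1 and 1 at an unadjusted p under 0.05). ICMT, which methylates the processed cysteine, differed by -0.58 ± 0.12 after H3.Y siRNA and -0.12 ± 0.12 in the combined knockdown. ZMPSTE24, the protease that matures lamin A, differed by -0.17 ± 0.15 and -0.48 ± 0.15.

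Among 6 chromatin proteins that bind lamina or inner membrane proteins, limma called 0 after H3.Y siRNA. Of these, 3 had an unadjusted p under 0.05, as did 13.9% of all probe sets. In the combined knockdown 4 were lower and 2 higher than luciferase. Of the lower ones 2 were called, where 1.84% of all probe sets were. RB1, the retinoblastoma protein held by LAP2 alpha and lamin A, read 7.83 and 8.02 with luciferase, 7.34 and 7.12 after H3.Y siRNA, and 6.66 and 6.74 in the combined knockdown. It fell by 1.23 ± 0.15 on the log2 scale. CBX3, the HP1 gamma protein that LBR can bind, fell by 0.84 ± 0.13, from 8.71 and 8.66 to 7.82 and 7.88, and was also lower there than after H3.Y siRNA (-0.70 ± 0.13, called). GMCL1, which binds LAP2 beta, was 0.99 ± 0.17 higher in the combined knockdown than after H3.Y siRNA and was called. It read 7.64 and 7.90 with luciferase, 6.71 and 6.85 after H3.Y siRNA and 7.63 and 7.91 in the combined knockdown, so that its H3.Y arrays were the low ones, as they were for LMNB1.

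**Figure D3:**
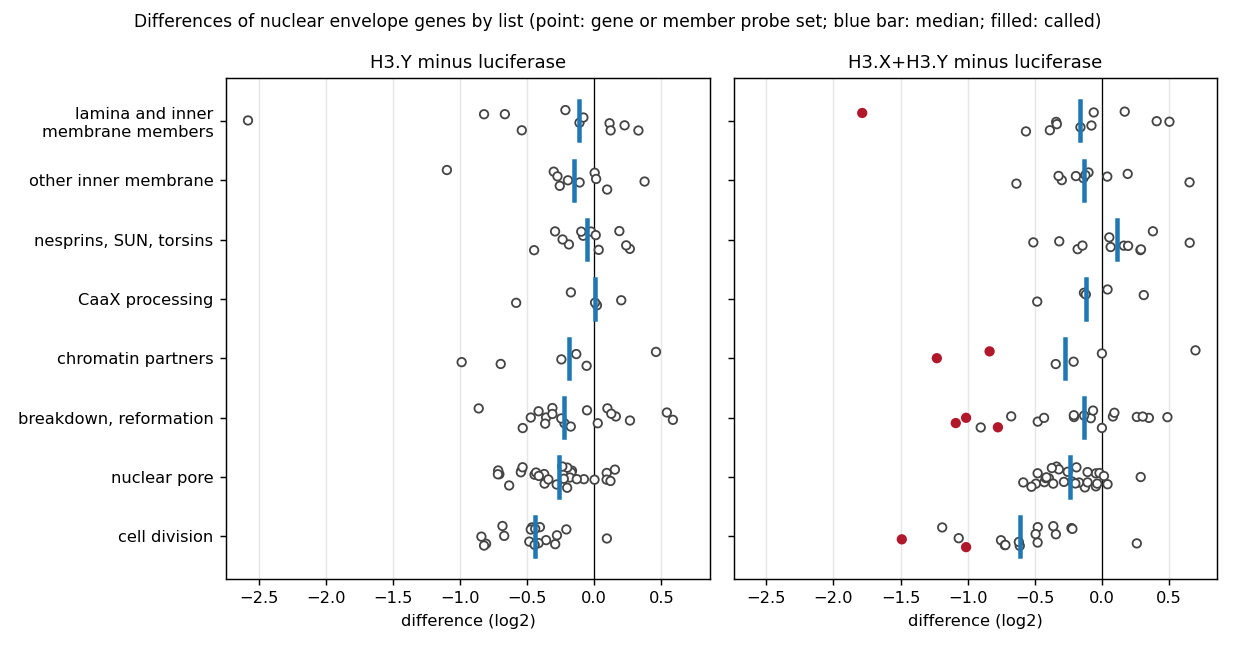
Difference from luciferase in log2 units (horizontal axis) of the 11 member probe sets and of the genes of 7 further lists, 1 row a list, after H3.Y siRNA and in the combined knockdown, with a blue bar at each median and filled points for an adjusted p under 0.05. LMNB1 at -2.58 and TMPO at -1.79 lie to the left of every other point in their panels, and the cell division list has the lowest medians, -0.44 and -0.61.

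Of the genes that take the envelope apart and rebuild it at mitosis, most were not called in the combined knockdown. Of 19 measured genes, 3 were called lower there against luciferase, 0 higher and 16 not, where 1.84% of all probe sets were called. By sign 12 were lower and 7 higher, with a median of log2 -0.13. The 3 calls were CDCA2, which recruits phosphatase to anaphase chromosomes (-1.09 ± 0.14), the mitotic kinase PLK1 (-1.01 ± 0.14) and the centrosomal kinase NEK2 (-0.78 ± 0.13). After H3.Y siRNA limma called 0 (6 at an unadjusted p under 0.05) and the median was -0.22. Between the knockdowns CDCA2 and the microtubule-severing ATPase SPAST were lower in the combined knockdown, by -0.84 ± 0.14 and -1.22 ± 0.17. VRK2, a kinase of the family that phosphorylates BANF1, was higher (0.65 ± 0.13) and is named because it was the 1 other call. Of 28 measured nuclear pore genes, limma called 0 in any comparison. An unadjusted p under 0.05 was reached by 13, 9 and 7 of them, and by 13.9%, 15.3% and 19.0% of all probe sets. Of the 28, 23 were lower after H3.Y siRNA and 25 in the combined knockdown, with medians of -0.26 and -0.24. NUP43 differed by -0.71 ± 0.14 and -0.26 ± 0.14, and NUP155 by -0.55 ± 0.13 and -0.59 ± 0.13.

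Cell division genes were read beside TMPO and LMNB1. The 17 genes, which include PLK1, CDK1 and CCNB1 of the list above, averaged 9.17 and 9.24 on the luciferase arrays, 8.64 and 8.83 after H3.Y siRNA, and 8.51 and 8.66 in the combined knockdown. Of them 16 were lower in each knockdown, with medians of log2 -0.44 and -0.61. Cyclin A2 (CCNA2, -1.49 ± 0.14) and PLK1 were the 2 calls in the combined knockdown, both lower, where 1.84% of all probe sets were called. After H3.Y siRNA limma called 0 (11 at an unadjusted p under 0.05, as were 13.9% of all probe sets). CCNA2 was the 1 call between the knockdowns, lower in the combined knockdown by -0.81 ± 0.14. Their part in the member differences was not tested.

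Genes that usually rise in senescent cells, in which LMNB1 is known to be low, were read beside it. Of 12 measured, 9 were higher and 3 lower after H3.Y siRNA, with a median of log2 0.27. The collagenase MMP1 (3.10 ± 0.25) was the 1 call in limma (4 at an unadjusted p under 0.05). The combined knockdown had 8 higher and 4 lower, also with a median of 0.27 (6 at an unadjusted p under 0.05 in limma). The 1 call in that comparison was the CDK inhibitor CDKN1A (1.03 ± 0.16), which was 0.47 ± 0.16 after H3.Y siRNA and not called there. MMP1 and MMP3 were lower in the combined knockdown than after H3.Y siRNA, by -4.40 ± 0.25 and -1.22 ± 0.16. The list averaged 6.25 and 6.21 with luciferase, 6.84 and 6.52 after H3.Y siRNA and 6.40 and 6.42 in the combined knockdown. These averages take in MMP1, which read 11.61 and 10.94 after H3.Y siRNA against 8.07 and 8.27 with luciferase. CDKN2A, IL6, IL1A, IL1B and IGFBP3 were dim, with luciferase means of 3.41 to 4.80, below every array median. The part of these genes in the LMNB1 differences was not tested.

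Marker genes of other cells were counted in the same way. Of 6 mesenchymal markers, limma called 0 after H3.Y siRNA (1 at an unadjusted p under 0.05). In the combined knockdown 5 were above luciferase, of which COL1A1 (1.58 ± 0.17) was the 1 called. Against H3.Y siRNA 5 were higher there, and 3 of them were called. Of 4 epithelial markers, limma called 0 after H3.Y siRNA (1 at an unadjusted p under 0.05). In the combined knockdown all 4 were above luciferase, and EPCAM was the 1 called (2.25 ± 0.18, and 2.73 on its second probe set). All 4 were also above H3.Y siRNA there, and 3 of them were called. The 3 measured blood markers had 0 calls in limma in any comparison (0, 0 and 0 at an unadjusted p under 0.05). Of 3 neural markers SYP was the 1 call, lower in the combined knockdown than after H3.Y siRNA by -0.82 ± 0.16.

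**Figure D4:**
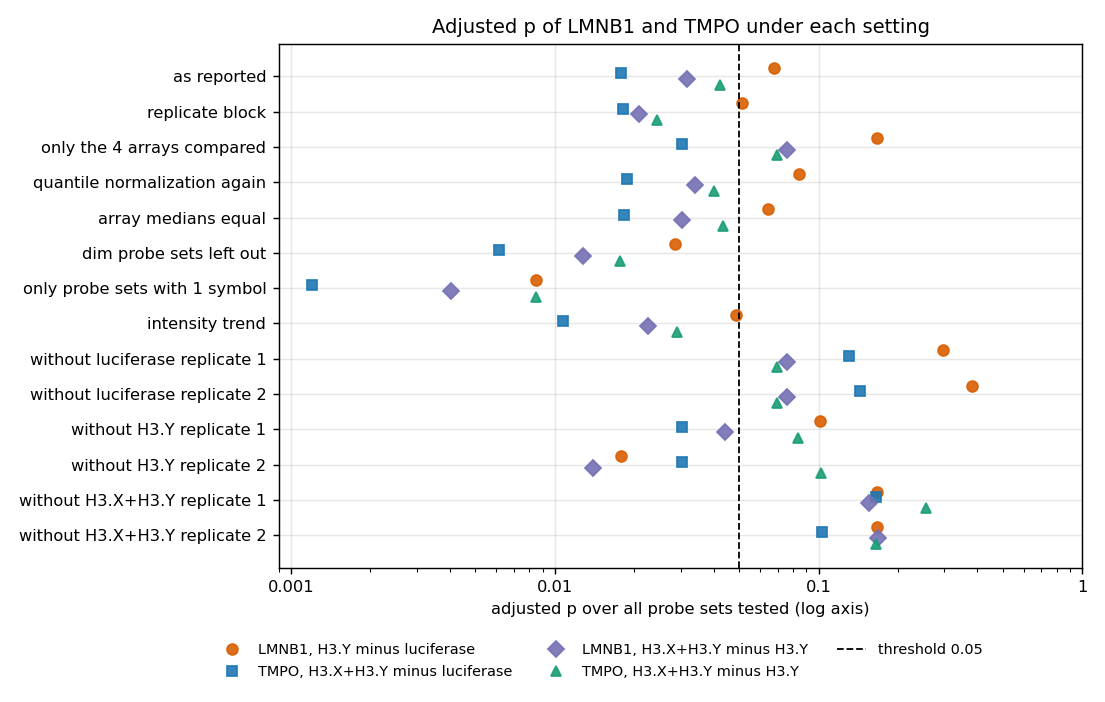
Adjusted p over all probe sets tested (horizontal log axis) of 4 member differences under the reported setting and 13 alternatives, 1 row a setting, with a dashed line at 0.05. TMPO in the combined knockdown against luciferase (squares) stays left of the line except where a luciferase or combined array is left out, and LMNB1 after H3.Y siRNA lies right of it as reported (0.068) and left of it under 3 alternatives that keep all arrays, and without H3.Y replicate 2, where the H3.Y group has no spread of its own.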

How the data were processed

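Total RNA was prepared for Affymetrix arrays, per the labels' protocols. The submitters' processing notes name oligo, a Bioconductor package, as the tool behind the deposited log2 values per probe set. How background was corrected, how probes were summarised, and which build and version served was not given in the sources used here. Base 2 was inferred from values running from 0.687 to 14.0, and values were used as deposited. Arrays were grouped by their labels.

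Of 33297 probe sets, 19460 had 1 symbol in the platform annotation, 1754 had several and 12083 were unnamed here. For 19429, symbols were updated by Entrez ID through RefSeq (GRCh38.p14). Member probe sets with several symbols numbered 0.

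limma 3.58.1 (R 4.3.3) was run with lmFit and eBayes on all 6 arrays, 1 mean per group (3 residual and 3.43 prior degrees of freedom). Tests were two-sided. Each comparison had its own Benjamini-Hochberg adjustment, which took in every probe set, and errors after ± are standard errors of this fit. The fit was checked on simulated data. The number of arrays limits the precision. For lists, the probe set with the highest mean stood for a gene.

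Members and lists were chosen with earlier results of these data known. The text names all members, from each list up to 4 called genes (or 2 uncalled ones) of smallest p, and the 5 nearest profiles to the member probe set with the smallest p. NRM, VRK2 and some cell type markers were named after their values were seen. The fits were repeated with a replicate block, with only the 4 arrays compared, renewed quantile normalization, equal array medians, leaving out dim probe sets (those above 5.12, the median of all values, on fewer than 2 arrays), only 1-symbol probe sets, an intensity trend, and leaving out each array.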

Additional observations from a re-analysis of the deposited data

How the results depend on the processing

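Of 429 recomputed member differences (33 under 13 alternatives), 392 kept their direction and side of the threshold, 16 lost the call, 13 gained it and 8 changed sign. In each comparison, leaving out either array of the third group gave the same fit as only the 4 arrays compared. The counts therefore hold repeats of that fit. Also counted among the 13 is the LMNB1 gain without H3.Y replicate 2, which is not read as a gained call above. Called member probe sets after H3.Y siRNA, 0 as reported (93 of all 33297 tested), numbered 1 without dim probe sets (530 of 17508). They numbered 1 with an intensity trend (205 of 33297) and 2 with only 1-symbol probe sets (829 of 19460). In the combined knockdown, 1 as reported (614 of 33297) became 2 with only 1-symbol probe sets (1549 of 19460). Between the knockdowns, 2 as reported (1554 of 33297) became 4 without dim probe sets (2569 of 17508). The count was also 4 with an intensity trend (1956 of 33297) and with only 1-symbol probe sets (2715 of 19460). It was 3 after renewed quantile normalization (1626 of 33297) and 0 with only the 4 arrays compared (448 of 33297). Calls over all probe sets rose in the settings where member calls were gained, so the gains are not read as a result about the members. Over all probe sets the calls ran from 0 to 829 (93 as reported), 0 to 1549 (614) and 12 to 2715 (1554).

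The sign changes were all among uncalled differences. With an array left out, LEMD3 after H3.Y siRNA ran from -0.26 to 0.039, SUN1 from -0.47 to 0.04 and the second BANF1 probe set from -0.009 to 0.25. In the combined knockdown LMNA ran from -0.23 to 0.076 and the second BANF1 probe set from -0.18 to 0.062, and renewed quantile normalization gave the latter 0.024. LBR between the knockdowns ran from -0.24 to 0.19. The cause was not tested. Deviations of same-numbered arrays correlated at 0.12 to 0.28, and the labels name no shared batch or day. The replicate block gave 0, 1 and 2 called member probe sets, changing no call. With 2 arrays per group, leaving out 1 removes a residual degree of freedom, and the lone array is assumed to vary like the other groups.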
